A study of Mus musculus with 6 samples.

Results

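The Trim genes encode the tripartite-motif proteins, of which Trim6 was noted as lower in haematopoietic stem cells (HSC) of Lig4mut mice. The members were taken by name, as every gene that a probe set of the array names alone and whose symbol is Trim followed by a number. This gave 58 genes with 111 probe sets, of 18193 genes with 34945 probe sets in all. The family was chosen because of the difference of Trim6 between the genotypes, so the values of that gene are given as a description, and nothing is read from them. Trim6 stayed in the fit over all genes and in the counts over the 58 members, where its test is not independent of the choice. The other 57 genes were chosen by symbol.

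Expression was measured on 1-colour Affymetrix arrays in bone marrow HSC, gated as CD150+ CD48- KSL cells, of 3 Lig4mut and 3 wild-type (WT, Lig4+/+) samples. The mice were littermates from crosses between Lig4mut/+ parents and were 6 to 8 weeks old. The labels name no other allele, transgene or treatment, do not say what the Lig4 mutation is, and do not say whether a sample is 1 mouse or a pool. Lig4 encodes DNA ligase IV of the end-joining pathway of DNA repair, and the study, by its title, is about its part in HSC maintenance.

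Tripartite-motif proteins carry a RING finger, B-boxes and a coiled coil at their amino end, and most act as ubiquitin ligases. What follows the coiled coil sets the class. A SPRY domain is the most common, and others have a PHD finger with a bromodomain, NHL repeats, a COS box or a membrane anchor. Several SPRY members are induced by interferon and act in antiviral defence. The PHD members Trim24, Trim28 and Trim33 work on chromatin, and Trim33 and Trim28 are known regulators of blood stem cells.

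All levels are log2 values per probe set after quantile normalization across the 6 arrays, and the lowest value possible is 3, a floor set before deposit. A gene is represented by its probe set of highest mean over the 6 arrays, and differences are Lig4mut minus WT with a standard error (SE). Deposited array medians were 6.29 to 6.34 in WT and 5.97 to 6.05 in Lig4mut. Levels of Lig4 were 6.66 to 7.63 in WT and 3.10 to 4.97 in Lig4mut. Of 10 HSC markers 8 were measured, Slamf1 (CD150) and Kit among them, with a mean of 10.85 to 11.06 in the WT arrays and of 10.54, 9.27 and 10.43 in Lig4mut replicates 1, 2 and 3. The mean of 9 granulocyte markers was 11.00 in Lig4mut replicate 2 and 6.51 to 9.13 in the other 5 arrays. Macrophage and dendritic cell markers averaged 6.31 to 6.82 in WT and 7.44 to 7.69 in Lig4mut, and 4 endothelial markers 8.03 to 9.43 and 9.46 to 10.6. Means of 7 B cell markers were 6.51 to 6.65 in WT and 6.87 to 7.65 in Lig4mut, of 5 T and NK cell markers 4.67 to 5.28 and 5.09 to 6.43, and of 4 megakaryocyte markers 9.12 to 9.86 and 9.64 to 10.4. All members of the B cell, T and NK cell, megakaryocyte and endothelial lists and 7 of 8 of the macrophage and dendritic cell list had higher values in Lig4mut. Higher values were also found for 61.4% of all genes, and for 7167 of the 9097 genes with a WT mean at or under the median. Of the 8 HSC markers 7 had lower values, against 5089 of the 9096 genes with a WT mean above the median. No marker of these lists was at the floor on all 6 arrays. The part of other cells in the results on Trim genes was not tested. Xist was high in WT replicate 3 and Lig4mut replicate 2 and low in the other 4 arrays. In bulk RNA, fewer cells of a type and less RNA per cell cannot be told apart.

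Trim6 stands at the edge of a run of related genes on mouse chromosome 7. In the RefSeq gene order (GRCm38.p6) it is followed by Trim34a, Trim5, Trim12a, Trim34b, Trim12c, Trim30b, Trim30c, Trim30a and Trim30d, with olfactory receptor genes on both sides. The array names 7 of these alone. Promoters of this run are shown to set Trim6 beside its neighbours at their start sites. The letters GAAANNGAAA (N is any base) on either strand, the core of the interferon-stimulated response element, were searched from 250 bases before to 50 after each RefSeq start. Of 61 such windows of 47 Trim genes, 10 windows of 9 genes held them (16.4%), against 3.44% of 32851 windows of all genes. Most of those 9 genes lie in this run and some of their windows share sequence, so the windows are not independent. The stretches run 5′ to 3′ from 70 bases before to 30 after the start on the strand of the gene, with matches in capitals.
Trim6, chr7:104218725-104218824, plus strand: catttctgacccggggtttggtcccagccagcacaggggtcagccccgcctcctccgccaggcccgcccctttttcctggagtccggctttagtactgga
Trim34a, chr7:104244387-104244486, plus strand: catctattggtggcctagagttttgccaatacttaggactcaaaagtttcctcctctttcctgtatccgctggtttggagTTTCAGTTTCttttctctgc
Trim5, chr7:104288077-104288176, minus strand: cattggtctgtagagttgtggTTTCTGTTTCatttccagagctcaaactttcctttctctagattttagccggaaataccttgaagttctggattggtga
Trim12c, chr7:104353320-104353419, minus strand: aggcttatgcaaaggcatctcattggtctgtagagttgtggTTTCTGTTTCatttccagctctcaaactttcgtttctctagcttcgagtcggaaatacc
Trim30a, chr7:104465164-104465263, minus strand: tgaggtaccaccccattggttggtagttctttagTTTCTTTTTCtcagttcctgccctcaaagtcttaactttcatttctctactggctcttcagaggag
Trim21, chr7:102565453-102565552, minus strand: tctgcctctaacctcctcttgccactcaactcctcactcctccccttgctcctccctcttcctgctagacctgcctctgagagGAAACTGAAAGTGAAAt

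The 6 other measured genes of the run, Trim34a, Trim5, Trim12a, Trim12c, Trim30a and Trim30d, each held the letters within this window, and the window of Trim6 did not. Trim5, Trim12a and Trim12c carried the same 10 letters, and an unbroken run of 71 bases was shared by the windows of Trim5 and Trim12c. Trim30a and Trim30d shared a run of 118 bases. The longest run that Trim6 shared with any of them, or with Trim21, was 10 bases. Trim21, elsewhere on chromosome 7, held 2 matches that overlap. The other members with a match were Trim2 and Trim26. A match is a description of the letters only and does not show that a factor binds there.

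In WT HSC the means of the Trim genes ran from 3.03 to 11.60. The WT mean was 9 or above for 14 of the 58 genes (24.1%, against 23.6% of all genes), 7 to under 9 for 10, 5 to under 7 for 25 (43.1%, against 27.3% of all genes) and under 5 for 9. Probe sets differ in how strongly they hybridise, so no order between genes is read from these levels. The spread between arrays was close to that of other genes, with a median SD of 0.294 in WT and 0.469 in Lig4mut for Trim genes and of 0.283 and 0.452 for all genes.

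**Figure D1:**
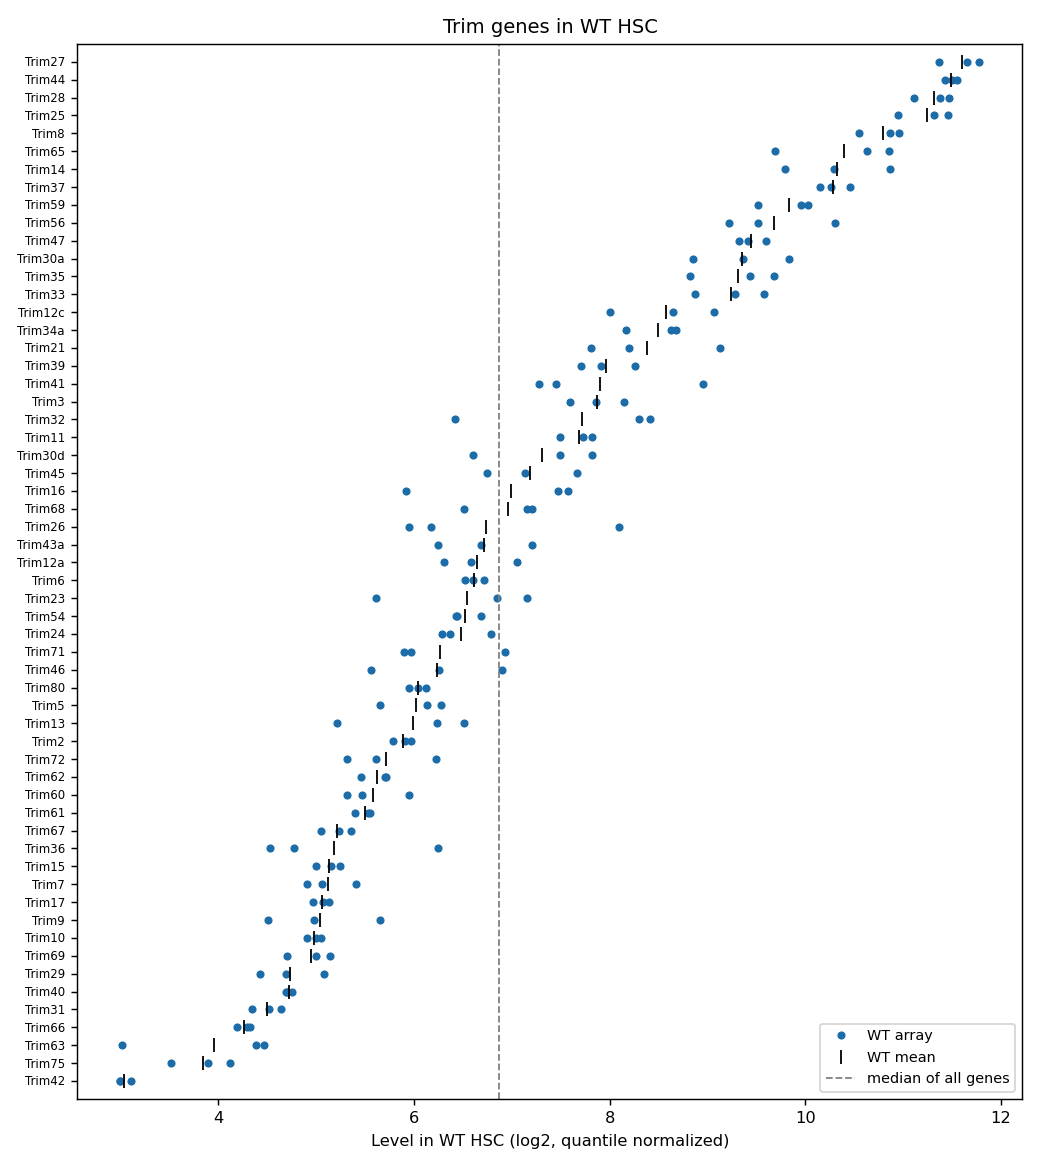
Levels of the 58 Trim genes in the 3 WT arrays (log2, quantile normalized), with points for arrays, a tick for the mean and a dashed line at the median of all genes, 6.86. WT means run from 3.03 for Trim42 to 11.60 for Trim27, and 26 of the 58 lie above the dashed line.

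The 12 members with the brightest probe sets in WT are described next, with no order between them. Trim28, the corepressor that KRAB zinc finger proteins recruit, was at 11.47, 11.11 and 11.37 in WT and at 11.78, 11.44 and 11.89 in Lig4mut. Its difference was 0.39 ± 0.19 (SE, n = 3 per genotype), with the arrays overlapping (limma, adjusted p = 0.332). Trim27, which promotes retromer-dependent endosome sorting, differed by -0.21 ± 0.36, and Trim44, which lacks a RING finger, by -0.63 ± 0.30. Of the 6 probe sets of Trim27 5 were lower and 1 higher, running from -1.16 ± 0.84 to 0.93 ± 0.61. Trim8, a regulator of cytokine signalling through Socs1, differed by -0.51 ± 0.26, Trim37, mutated in Mulibrey nanism, by -0.06 ± 0.32 and Trim59, a membrane-anchored member, by 0.43 ± 0.55. The antiviral adaptor and ligase genes Trim14, Trim56 and Trim65 had values of -0.78 ± 0.78, -1.35 ± 0.56 and -1.20 ± 0.57, each with overlapping arrays. Trim47 was at -0.38 ± 0.34 and Trim30a at 0.04 ± 0.44, while Trim25 is described further on. Without 1 array, Trim47 ranged from -0.566 to -0.0203 and Trim59 from 0.0320 to 1.01, with the value nearest 0 when Lig4mut replicate 1 was left out for Trim47 and Lig4mut replicate 3 for Trim59. None of these 12 passed the threshold of 0.05 over all genes. The values of Trim27 and Trim37 change sign when arrays are centred on their medians, and that of Trim8 when probe sets are averaged.

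Some dim members are shown by array. Trim42 was at the floor in 2 of 3 WT arrays, with 3.10, 3.00 and 3.00 in WT and 3.62, 3.15 and 3.19 in Lig4mut. Trim63, which encodes the muscle ligase MuRF1, was at 3.02, 4.46 and 4.38 in WT and at 3.22, 3.14 and 3.34 in Lig4mut. Trim10, a gene of maturing erythroid cells, was at 4.99, 5.05 and 4.91 in WT and at 4.47, 5.60 and 4.96 in Lig4mut. The genotypes overlap for Trim10 and Trim63. The mean of 7 measured erythroid markers was 5.55 to 5.92 in WT and 5.68 to 5.71 in Lig4mut.

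Trim6, which makes free ubiquitin chains that activate the interferon kinase encoded by Ikbke, has 2 probe sets that gave different pictures. The brighter probe set was at 6.52, 6.71 and 6.60 in WT and at 3.96, 3.71 and 3.86 in Lig4mut. All 3 Lig4mut arrays lay far below the WT arrays and none was at the floor. The difference was -2.77, or 6.83-fold, and this is the value that led to the family. The dimmer probe set was at 5.25, 4.56 and 4.65 in WT and at 4.35, 5.13 and 4.58 in Lig4mut. Here the genotypes overlapped and the difference was -0.13 ± 0.30. The mean over both probe sets was -1.45. The SD pooled over the genotypes was 0.111 for the first probe set, against a median of 0.423 over the Trim genes, and 1 other Trim gene had a smaller one. As Trim6 was picked for its difference in these same values, nothing is read from its SD.

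**Figure D2:**
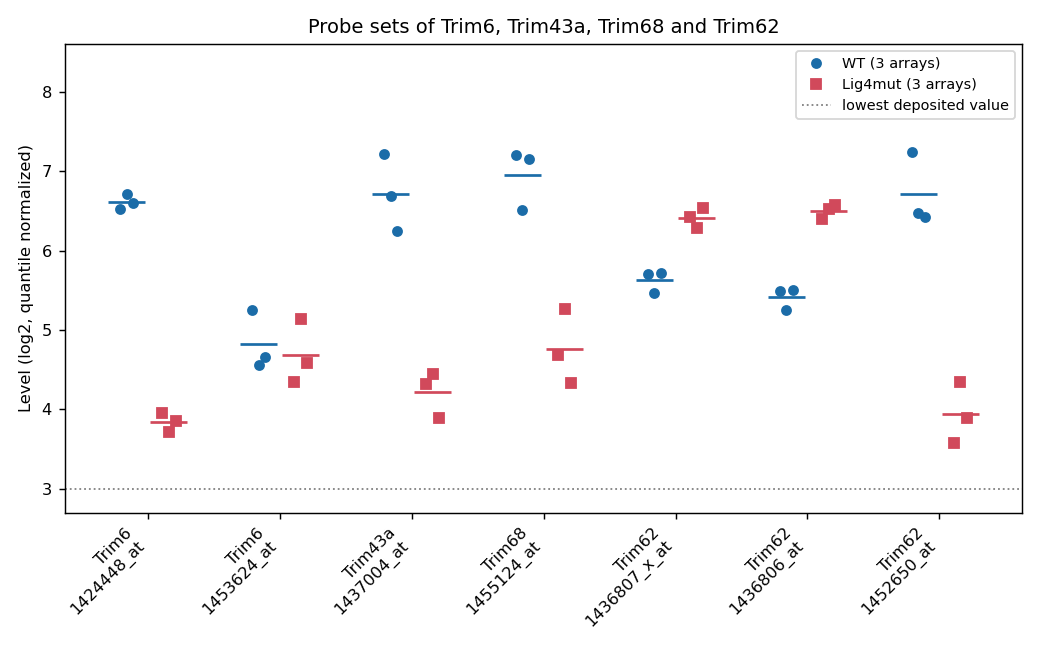
Level (log2, quantile normalized) of every probe set of Trim6, Trim43a, Trim68 and Trim62, with circles for the 3 WT arrays, squares for the 3 Lig4mut arrays, bars for the means and a dotted line at the lowest deposited value. The first probe set of Trim6 separates the genotypes by 2.77 and the second does not, and of Trim62 2 probe sets are higher and 1 lower in Lig4mut.

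Trim43a and Trim68 had differences close in size to that of Trim6, and each has 1 probe set. Trim43a, of a group of Trim genes used in the early embryo, was at 7.21, 6.68 and 6.25 in WT and at 4.32, 4.44 and 3.90 in Lig4mut. Lig4mut minus WT came to -2.49 ± 0.30 (SE, n = 3 per genotype), 5.63-fold, with no overlap (limma, adjusted p = 0.125). Trim68, a ubiquitin ligase of the androgen receptor, was at 7.20, 6.51 and 7.15 in WT and at 4.69, 5.26 and 4.33 in Lig4mut. The difference was -2.20 ± 0.32, 4.58-fold, again with no overlap (limma, adjusted p = 0.125). Neither passed the threshold. Without any 1 array the difference was -2.73 to -2.25 for Trim43a and -2.44 to -1.98 for Trim68.

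Trim25 was lower in all of its probe sets. This ubiquitin ligase of the viral RNA sensor RIG-I was at 11.31, 11.46 and 10.95 in WT and at 10.53, 10.57 and 9.54 in Lig4mut in its brightest probe set. The arrays did not overlap, and the difference was -1.03 ± 0.34, 2.04-fold (limma, adjusted p = 0.204). The other 2 probe sets differed by -1.55 ± 0.65, without overlap, and by -0.84 ± 0.66, with overlap. Trim25, Trim43a and Trim68 were the lower members with no overlap beside Trim6. These 3 are 5.26% of the members other than Trim6, where 5.65% of all genes were separated on the lower side. Without Lig4mut replicate 3, the difference of Trim25 was -0.690.

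On the higher side 11 members had no overlap (19%, against 21% of all genes), and none passed the threshold. Of the 11, 10 were among the 32 members with a WT mean at or under the median of all genes. Of all 9097 genes at such WT levels, 3110 were separated on the higher side. Trim54, a muscle RING finger gene of the COS box class, was at 6.43, 6.44 and 6.69 in WT and at 7.80, 8.47 and 7.36 in Lig4mut. Lig4mut minus WT came to 1.36 ± 0.31 (SE, n = 3 per genotype), 2.56-fold (limma, adjusted p = 0.146). Trim2, a ligase with NHL repeats that acts on neurofilament in neurons, was at 5.79, 5.91 and 5.97 in WT and at 6.79, 6.997 and 6.87 in Lig4mut in its brightest probe set, 1.99-fold apart (limma, adjusted p = 0.125). Of its 6 probe sets 4 were lower and 2 higher, and the mean over them was 0.0451. Trim45, which has a filamin repeat, differed by 0.87 ± 0.32. Trim62, described further on, was at 0.79 in its probe set of highest mean over the 6 arrays, which is not its brightest in WT. Trim60, Trim69, Trim17, Trim80, Trim66, Trim42 and Trim61 lay between 0.27 and 0.71. The median of all genes was 0.177, and relative to it Trim42 and Trim61 were at 0.11 and 0.09. Both have a WT mean at or under the median, and over all such genes the median difference was 0.367. That lies above the differences of Trim42 (0.284) and Trim61 (0.272). Trim61 was at -0.0393 in the values as deposited.

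**Figure D3:**
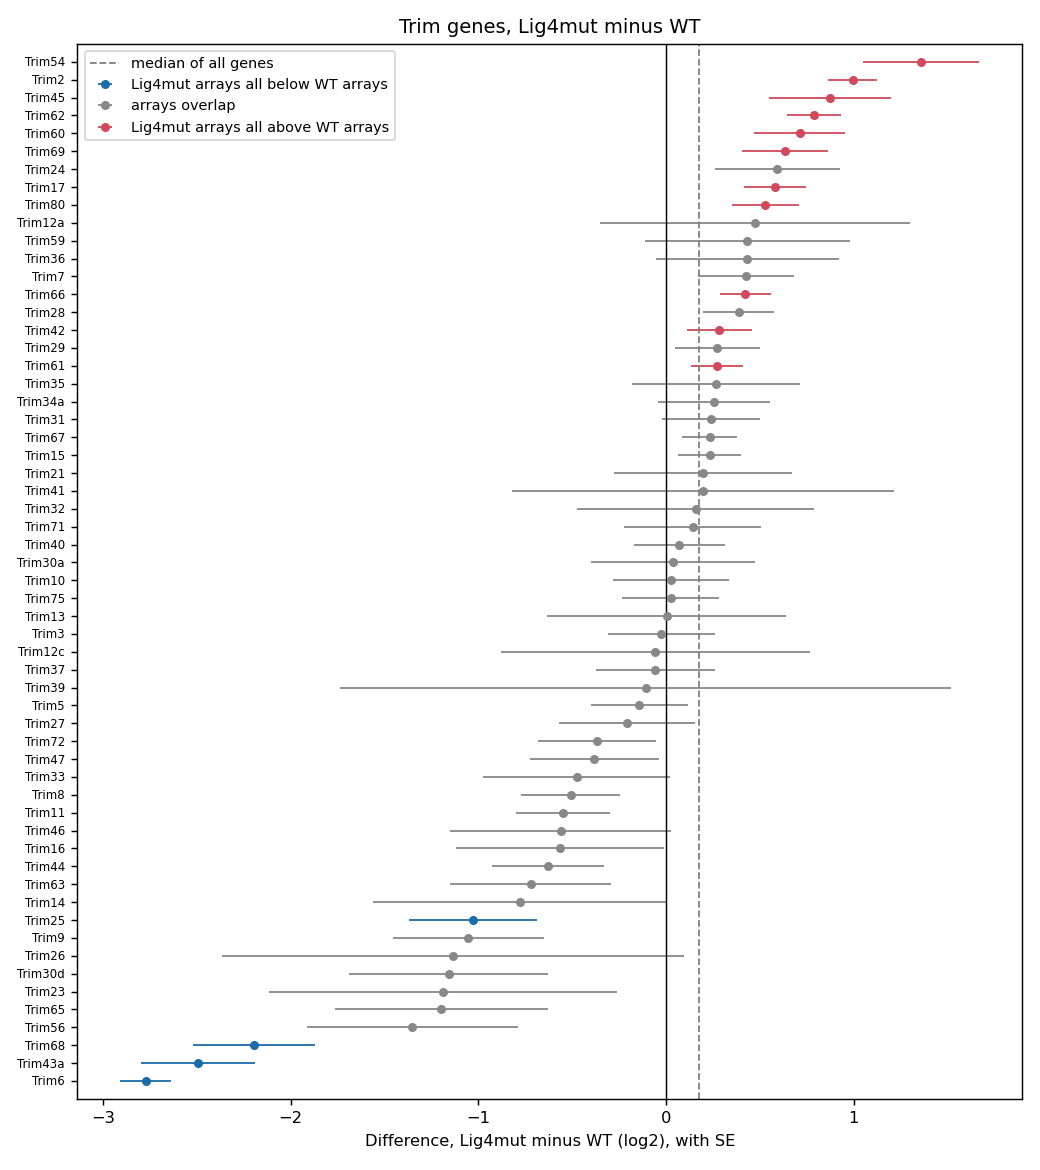
Difference between Lig4mut and WT (log2, point with SE) of the 58 Trim genes, coloured by whether the 3 Lig4mut arrays lie all above, all below or among the 3 WT arrays, with a dashed line at the median of all genes, 0.177. Trim6, Trim43a and Trim68 stand at the lower end, 11 genes are separated on the higher side (19%, against 21% of all genes), and 43 overlap.

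Counts over the family stand beside those of all genes. None of the 57 members other than Trim6 passed the adjusted threshold, in a fit that called 0.011% of all genes lower and 0% higher. At an unadjusted p under 0.05 there were 9 higher members of these 57 (15.8%, against 15.5% of all genes) and 4 lower ones (7.02%, against 4.18%), where 19.7% of all genes lay in either direction. Members with no overlap came to 11 higher (19.3%, against 21% of all genes) and 3 lower (5.26%, against 5.65%), where 26.7% of all genes had none in either direction. Since the family was chosen from this contrast, nothing is read from these counts. With Trim6 counted, 4 higher and 7 lower members lay at that p in the values as deposited, where all genes came to 6.71% higher and 5.44% lower. With arrays centred on their medians there were 11 higher and 3 lower, against 18.4% and 2.6% of all genes.

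The median difference of the Trim genes was 0.0321, and that of all genes 0.177. In the values as deposited the medians were -0.167 and 0.0186, with median centring 0.146 and 0.332, and with cyclic loess -0.0776 and 0.0939. Of the 26 Trim genes with a WT mean above the median of all genes, 17 had lower values and the median was -0.157, against -0.0867 for all such genes. Of the 32 dimmer ones, 23 had higher values with a median of 0.236, against 0.367 for all such genes.

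How far the probe sets of a gene went together was measured for the 31 members with 2 or more. Their directions differed for 16 (51.6%), against 52% of 9010 such genes on the array. Trim62, linked to epithelial polarity, was the member with the widest split. A pair of its probe sets had differences of 0.79 ± 0.14 and 1.07 ± 0.13, and the other had -2.77 ± 0.32. The last was at 7.24, 6.47 and 6.42 in WT and at 3.57, 4.35 and 3.90 in Lig4mut. In WT it was the brightest of the 3, with a mean of 6.71 against 5.63 and 5.42. The arrays did not overlap for any of the 3 probe sets, and none passed (limma over probe sets, adjusted p = 0.129, 0.118 and 0.118). The mean over them was -0.303, so the direction of Trim62 turns with the probe set taken.

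**Figure D4:**
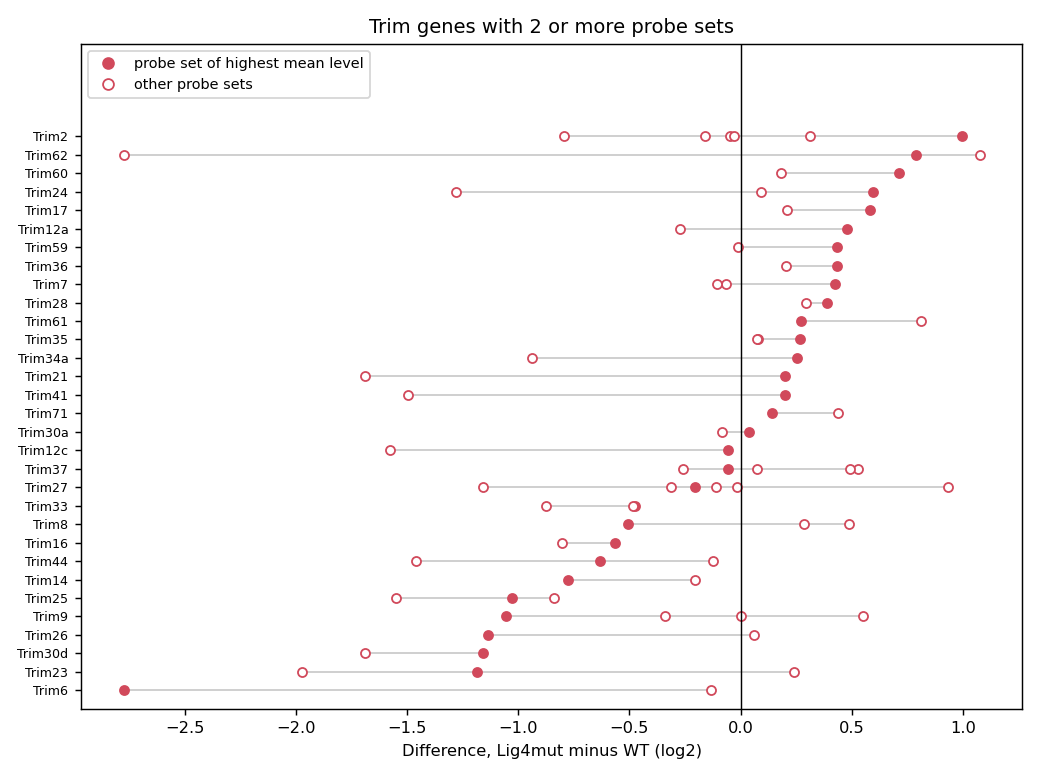
Difference between Lig4mut and WT (log2) of each probe set of the 31 Trim genes with 2 or more, a filled point for the probe set of highest mean level, open points for the others and a line over the range. Trim62 spans from -2.77 to 1.07, and in 16 of the genes points lie on both sides of 0.

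Wide splits occurred in other members too. Trim44 had 1 probe set at -1.46 ± 0.38, without overlap, beside another at -0.13 ± 0.89. Trim21, the cytosolic antibody receptor, had 1 probe set at 0.20 ± 0.48 and 1 at -1.69 ± 1.09, both with overlap. Trim24, a coregulator of nuclear receptors, had 2 probe sets above 0, at 0.59 ± 0.34 and 0.09 ± 0.44, and 1 at -1.28 ± 1.11. The 3 probe sets of Trim33, a partner of Smad4, all had lower values, each with overlap. They came to -0.48 ± 0.50, -0.88 ± 1.26 and -0.48 ± 0.57. For the last, Lig4mut replicates 1 and 2 read 3.00, the lowest value possible. Both probe sets of Trim28 were higher, at 0.39 and 0.29. Over all 111 probe sets, 19 lay at an unadjusted p under 0.05 (17.1%, against 17.5% of all probe sets) and 20 had no overlap (18%, against 23.7%). None passed the adjusted threshold, which 0.00286% of all probe sets did.

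The neighbours of Trim6 overlapped between the genotypes. Trim34a was at 8.63, 8.16 and 8.68 in WT and at 8.70, 8.30 and 9.23 in Lig4mut (0.25 ± 0.30, limma, adjusted p = 0.682). A second probe set of Trim34a went the other way, at -0.94 ± 1.35 with overlap, and the mean over both was -0.341. Trim5, the mouse relative of a retroviral restriction factor, differed by -0.14 ± 0.26, Trim12c by -0.06 ± 0.82 (-1.58 ± 1.57 in its other probe set, -0.817 averaged) and Trim30a, which restrains Toll-like receptor signalling, by 0.04 ± 0.44. Trim12a was at 6.31, 7.05 and 6.58 in WT and at 6.13, 8.94 and 6.30 in Lig4mut. Its high array is Lig4mut replicate 2, the one with high granulocyte markers, whose part in the value was not tested. Without that array the difference of 0.48 became -0.433. A second probe set of Trim12a was at -0.27 ± 1.36 with overlap, and was highest in WT replicate 2 (8.56), followed by Lig4mut replicate 2 (8.42). Trim30d was at 6.61, 7.82 and 7.49 in WT and at 5.37, 6.09 and 6.99 in Lig4mut, with -1.16 ± 0.53 and overlap, and -1.69 ± 0.82 with its other probe set. Trim21 and Trim68, both on chromosome 7 away from this run, are given above.

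**Figure D5:**
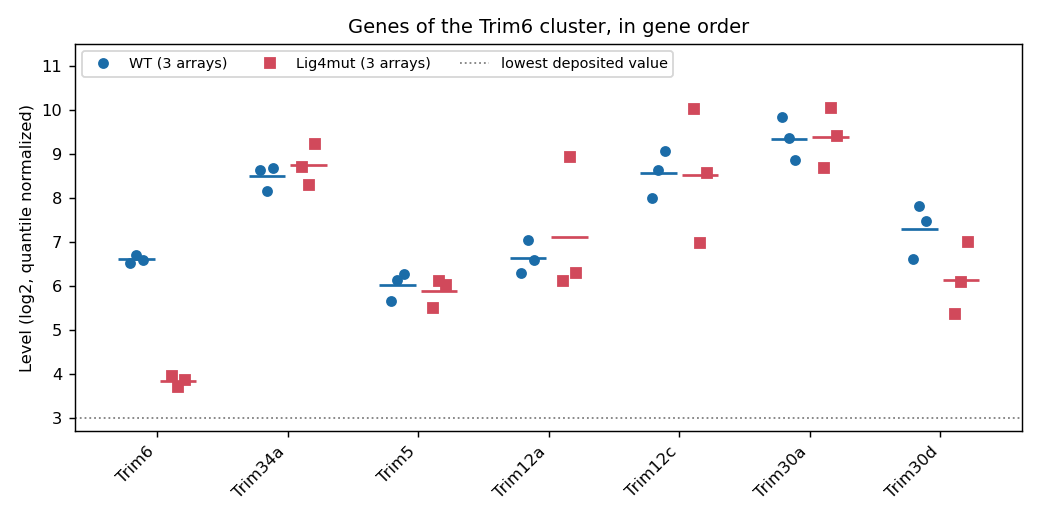
Level (log2, quantile normalized) of the 7 measured genes of the Trim6 cluster in gene order, with circles for the 3 WT arrays, squares for the 3 Lig4mut arrays, bars for the means and a dotted line at the lowest deposited value. The genotypes separate for Trim6 and overlap for the other 6.

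By class, values went both ways in most sets. Of 28 measured members listed as SPRY, 14 had higher and 14 lower values, with a median of -0.0164. Members with no RING finger or no further domain were listed apart, Trim14 and Trim16 among them. The SPRY count therefore leaves out any of these that carry a SPRY domain. Of the 9 measured members listed apart 5 had lower values, and their median was -0.507. Of 4 PHD and bromodomain members 3 were higher, among them Trim66 with 0.42 ± 0.14 and no overlap, and the median was 0.404. Of all genes 61.4% were higher, with a median of 0.177. Of 4 NHL members 3 had higher values. Beside Trim2 these were Trim71, the let-7 target Lin41, with 0.14 ± 0.36 and Trim32 with 0.16 ± 0.63, and both change sign in the values as deposited. Of the 4 members with COS box, FN3 and SPRY 2 were lower, with Trim9, a netrin-pathway gene of neurons, at -1.05 ± 0.40 (-0.211 averaged over its 4 probe sets) and Trim46 at -0.56 ± 0.59. Trim67 was at 0.23 ± 0.15. Trim13, an anchored ligase of the endoplasmic reticulum, was at 0.0039 ± 0.64 (n = 3 per genotype), with a sign that turns in the values as deposited. Trim23, which carries an ARF domain, was at -1.19 ± 0.93. The other probe sets of Trim23 were at -1.97 ± 0.66 and 0.24 ± 0.26, both with overlap, and the mean over its 3 was -0.973.

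Single arrays set the spread of some members. Trim39 was at 7.91, 8.26 and 7.70 in WT and at 9.98, 9.41 and 4.17 in Lig4mut, so 2 Lig4mut arrays lay above and 1 far below the WT arrays. Trim26, a SPRY member of the MHC region, was at 6.18, 8.09 and 5.95 in WT and at 4.44, 4.32 and 8.05 in Lig4mut. Trim12c was at 8.00, 8.65 and 9.07 in WT and at 10.02, 6.97 and 8.56 in Lig4mut.

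The genes that work with Trim proteins gave no call. Of 12 measured ubiquitin, E1 and E2 genes, 10 had lower values with a median of -0.263, where 38.6% of all genes had lower values. These genes are bright, with array means of 9.27 to 10.3 over the list. Of the 9096 genes with a WT mean above the median, 5089 had lower values, with a median of -0.0867. At an unadjusted p under 0.05, 2 of the 12 lay lower, as did 4.18% of all genes and 614 of those 9096. Ube2l6, the E2 enzyme of the interferon-induced modifier Isg15, was at 8.88, 8.39 and 8.11 in WT and at 5.62, 6.84 and 4.41 in Lig4mut. The difference was -2.83 ± 0.65 without overlap (limma, adjusted p = 0.147). Uba6, a ubiquitin-activating enzyme, differed by -0.70 ± 0.27 with overlap, and Ube2d1, a common E2 partner of RING ligases, by -1.78 ± 0.85 without. Without Lig4mut replicate 3, that of Ube2d1 was -0.888. Ube2k and Ikbke, the E2 enzyme and the kinase through which Trim6 is known to act, were picked by that role after the values were seen, and were at 0.26 ± 0.33 and -0.98 ± 0.60 with overlap. Averaged over its probe sets, Ube2k was at -0.718, so its direction turns with the probe set.

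Of 18 measured genes of antiviral sensing and interferon signalling 9 had higher and 9 lower values, with a median of -0.0109. Irf7, the interferon regulatory factor, was at 6.32, 6.46 and 6.38 in WT and at 7.46, 7.43 and 7.42 in Lig4mut (1.05 ± 0.12, limma, adjusted p = 0.125), with no overlap. Traf6 differed by 1.12 ± 0.62 (0.00971 averaged over probe sets) and the interferon receptor gene Ifnar1 by -0.68 ± 0.41. Of 19 interferon-induced genes 14 had higher values, with a median of 0.283, where 61.4% of all genes had higher values. At an unadjusted p under 0.05, 1 lay higher, as did 15.5% of all genes. That was Ifit3, an antiviral effector, with 1.29 ± 0.28 and no overlap (limma, adjusted p = 0.139). Rtp4 and Gbp2 were at 1.20 ± 0.54 and 0.36 ± 0.18. Averaged over this list, levels were 7.35 to 7.97 in WT and 7.87 to 7.97 in Lig4mut.

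Among 14 chromatin and Smad partners of the PHD members, 8 had lower values and the median was -0.118. Smad3 differed by -0.66 ± 0.26 (0.10 averaged over probe sets), Setdb1, the histone methyltransferase that Trim28 recruits, by -0.90 ± 0.44 and Smad2 by 0.68 ± 0.34, the arrays of Smad3 and Smad2 being separated and those of Setdb1 not. Of 4 tripartite-motif genes under other symbols, Mid1, a microtubule-bound ligase, was at 5.44, 5.88 and 5.45 in WT and at 8.30, 6.45 and 6.89 in Lig4mut. The difference was 1.62 ± 0.52 with no overlap (limma, adjusted p = 0.194), and 0.494 averaged over probe sets. Pml and Mid2 had differences of -0.15 ± 0.46 and 0.31 ± 1.28, and of -0.786 and 0.183 averaged over probe sets.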

How the data were processed

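The authors deposited log2 expression values per probe set, for which the submitters' processing notes name RMA without a version. The lowest of these deposited log2 values is 3 on every array. RNA was amplified with the Ovation Pico WTA kit per the series' design text, while the labels' protocols name the standard Affymetrix labelling. Control probe sets (64 of 45101) and those naming several genes (932) or none (9160) were left out, among them 5 that name a Trim gene beside another. Values were quantile normalized because array medians differed. Testing used lmFit and eBayes of limma 3.58.1 (R 4.3.3), two-sided and without a filter on dim probe sets, and p-values were adjusted by Benjamini-Hochberg over 18193 genes, or over 34945 probe sets, at 0.05. The test was tried on simulated data. An exact permutation test of 3 against 3 cannot go below p = 0.1 and was not run. Arrays have no depth, and their number limits the precision.

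The members and the lists were chosen with earlier results of these data known. Named genes are Trim6, its cluster and paralogs, up to 10 members on each side with no overlap, the 12 with the highest WT mean, members whose probe sets oppose by at least 1, and the 3 of smallest p in each class and pathway list. Trim10, Trim26, Trim33 and Trim39 were named outside this rule, after their values were seen. Promoters and symbols come from RefSeq, GRCm38.p6, and 47 of the 58 genes matched a promoter.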

Additional observations from a re-analysis of the deposited data

How the results depend on the processing

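With 3 arrays per genotype the precision rests on few samples, dim probe sets lie near the floor, and a gene's value depends on which probe set stands for it. The count of Trim genes past the threshold was 1 in the values as deposited, with median centring, cyclic loess, trend and robust moderation, array weights, updated symbols and a threshold of 0.1. It was 0 (limma) with probe sets averaged (12 genes at an unadjusted p under 0.05, with 20.9% of all genes). With dim genes left out it was also 0 (4 genes, with 13.3%), and 31 members remained, Trim6 not among them. With Xist as a covariate, added after seeing the data, it was 0 (10 genes, with 18.3%). With all probe sets tested it was 0 as well. In that fit 19 of the 111 Trim probe sets lay at an unadjusted p under 0.05 (17.1%, against 17.5% of all probe sets). These belong to 17 genes, and a gene with several probe sets had more chances to be counted. The 1 gene is Trim6, whose values led to the family, so nothing is read from this count. Trim6 is also among the genes counted at an unadjusted p under 0.05, save where dim genes were left out. Leaving out each array in turn gave 0 to 0, and between 7 and 15 genes then lay at an unadjusted p under 0.05, against 14 in all, the 7 being without WT replicate 2. Of all genes 12.6% to 22.5% did, and 19.7% with every array. For probe sets at that p the range was 11 to 24, against 19, and the 11 were again without WT replicate 2. Trim6 itself lay between -2.83 and -2.71 in those fits.

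The labels do not say that a replicate number is shared between the genotypes, so the main fit used no pairing. Same-numbered arrays had correlations of 0.0357, 0.0102 and -0.0316 in their deviations from the genotype means. Differently numbered arrays were not set beside them, so these values cannot show whether the samples were paired. With the replicate block the count past the threshold was 0, with 12 genes at an unadjusted p under 0.05, 5 higher and 7 lower, against 11.7% and 4.05% of all genes.

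Of the 56 named genes followed through the alternatives, the difference kept its sign but moved by over 1.5 times for 17 with probe sets averaged, 16 with median centring, 14 in the values as deposited, 11 with cyclic loess and 33 without some 1 array. Some differences changed sign, and the cause was not tested. In the values as deposited these were Trim61 (-0.0393), Trim67 (-0.0635), Trim71 (-0.177), Trim32 (-0.0072) and Trim13 (-0.300). With median centring they were Trim12c (0.129), Trim27 (0.146), Trim37 (0.272) and Pml (0.171). With cyclic loess they were Trim37 (0.0507), Trim71 (-0.0745) and Trim13 (-0.197), and with array weights Trim12c (0.0436), Trim30a (-0.0109) and Trim13 (-0.0869). With probe sets averaged they were Trim30a (-0.0231), Trim34a (-0.341), Trim21 (-0.744), Trim62 (-0.303), Trim8 (0.0873), Trim37 (0.154), Trim24 (-0.198) and Smad3 (0.10).

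Leaving out 1 array in turn gave ranges that cross 0, from -0.328 to 0.0437 for Trim5, -0.433 to 0.975 for Trim12a, -0.809 to 0.716 for Trim12c, -0.298 to 0.382 for Trim30a, -0.0861 to 0.574 for Trim21 and -0.485 to 0.151 for Trim27. They ran from -1.26 to 0.0474 for Trim14, -0.384 to 0.142 for Trim37, -0.0646 to 0.473 for Trim71, -0.487 to 0.510 for Trim32, -0.397 to 0.587 for Trim13, -0.501 to 0.308 for Pml and -1.06 to 1.35 for Mid2.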
